A study of Mus musculus with 9 samples.

Results

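The guanylate-binding proteins (GBP) and immunity-related GTPases (IRG) of mouse splenic dendritic cells (DC) were described through 10 genes, chosen by their names in the deposited count table out of 39179 genes listed. They comprised the regulatory IRG genes Irgm1, Irgm2 and Igtp (also called Irgm3), the effector IRG genes Iigp1 (Irga6) and Ifi47 (Irgd), and the GBP genes Gbp2, Gbp3, Gbp5, Gbp7 and Gbp9. All 10 had enough counts to enter the test, which covered 13819 genes. RNA had been sequenced from cDC1 (sorted as CD8-positive conventional DC), cDC2 (CD8-negative conventional DC) and pDC (plasmacytoid DC) taken from C57BL/6J spleens at steady state, with no stimulus given, and the methods describe the study's wild-type mice as young adults kept free of specific pathogens. No group carried a transgene or a deletion. Each subset had 3 replicates, each from pooled spleens of 15 to 17 mice, so variation between single animals was averaged within a library. Levels are given as TMM-normalised CPM (read counts relative to the library's scaled total), which compares 1 gene across libraries, and RPKM (CPM per kilobase of exon) is used wherever genes are compared with each other.

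Both families are GTPases that cells make in response to interferons, above all IFN-γ, and that act on the membranes around intracellular microbes. GBP assemble on pathogen vacuoles and on bacteria, help to break them open and expose their contents to inflammasomes. Effector IRG load onto vacuoles of parasites such as Toxoplasma, while the regulatory IRG sit on the cell's own membranes and keep the effectors inactive there. Promoters of IFN-γ-induced genes often hold GAS elements, and those of genes induced by type I IFN often hold ISRE elements, to which IRF1 also binds.

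The promoter letters are shown first because interferon response elements recur in most of the windows read, though not in all. RefSeq promoter windows on GRCm38.p6 (250 bases before and 50 after each transcript start) were searched on both strands for an ISRE core, written here as GAAA, any 2 bases and GAAA again, and for a GAS, TTCNNNGAA, and matches were allowed to overlap. Windows were found by symbol for 7 of the 10 members, with none read for Iigp1, Gbp9 or Gbp5, and Gbp3 had a further window that held neither pattern. The ISRE core occurred in 6 of these 7 (85.7%) and the GAS in 3 of 7, against 3.44% and 8.3% of all 32851 promoter windows. The units differ: members were counted per gene, with a match in any of its windows (8 windows in all), and the background per window (27025 genes). Both patterns stood together in Irgm2, Igtp and Gbp7, and in 0.454% of all windows. The stretches below lie outside exons of GENCODE M21, except for the 30-base sites shown for Irgm1 and Gbp2, whose start is placed differently in the 2 annotations. The Irgm2 stretch lies within the M21 gene, which begins further upstream at chr11:58199618, near the start of Igtp. Each runs 5′ to 3′ on the gene's strand, and capitals mark the motif letters.
Irgm2, chr11:58214807-58214976, plus strand: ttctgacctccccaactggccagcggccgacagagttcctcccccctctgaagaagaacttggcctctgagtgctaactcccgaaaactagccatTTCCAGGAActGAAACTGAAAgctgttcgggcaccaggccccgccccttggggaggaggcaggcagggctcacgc
Igtp, chr11:58199386-58199555, plus strand: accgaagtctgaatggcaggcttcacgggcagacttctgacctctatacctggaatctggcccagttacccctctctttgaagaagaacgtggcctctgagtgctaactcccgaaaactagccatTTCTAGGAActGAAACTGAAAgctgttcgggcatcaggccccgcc
Irgm1, chr11:48871428-48871457, minus strand: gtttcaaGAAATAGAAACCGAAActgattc
Gbp7, chr3:142530166-142530335, plus strand: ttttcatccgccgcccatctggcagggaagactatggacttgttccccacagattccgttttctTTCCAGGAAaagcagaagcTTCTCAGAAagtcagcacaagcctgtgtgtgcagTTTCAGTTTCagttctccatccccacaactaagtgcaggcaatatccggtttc
Gbp3, chr3:142559874-142560025, plus strand: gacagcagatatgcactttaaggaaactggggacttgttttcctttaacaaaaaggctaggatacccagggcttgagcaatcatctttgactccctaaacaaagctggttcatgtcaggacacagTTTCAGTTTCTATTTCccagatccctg
Gbp2, chr3:142620594-142620623, plus strand: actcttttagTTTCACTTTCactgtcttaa
Ifi47, chr11:49076417-49076586, plus strand: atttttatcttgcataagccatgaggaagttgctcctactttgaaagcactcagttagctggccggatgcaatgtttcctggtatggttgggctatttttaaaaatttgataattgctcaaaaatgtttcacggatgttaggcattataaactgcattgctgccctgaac

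The Irgm2 and Igtp stretches held the GAS and the ISRE core in the same order with 2 bases between them, and aligned at these motifs without gaps they matched at 108 of 140 bases (77.1%), with an identical run of 38 bases. In Irgm1 and Gbp3, 2 ISRE cores overlapped. Gbp7 had 2 GAS matches upstream of its ISRE core, whereas Gbp2 had a single ISRE core. Ifi47, described below as the member with the highest level per length in pDC, held neither pattern in its window, which says only that these letters are not in the 300 bases searched. Among the other GBP and IRG genes, 8 of 18 had a window, of which 5 held an ISRE core and 4 a GAS.

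**Figure D1:**
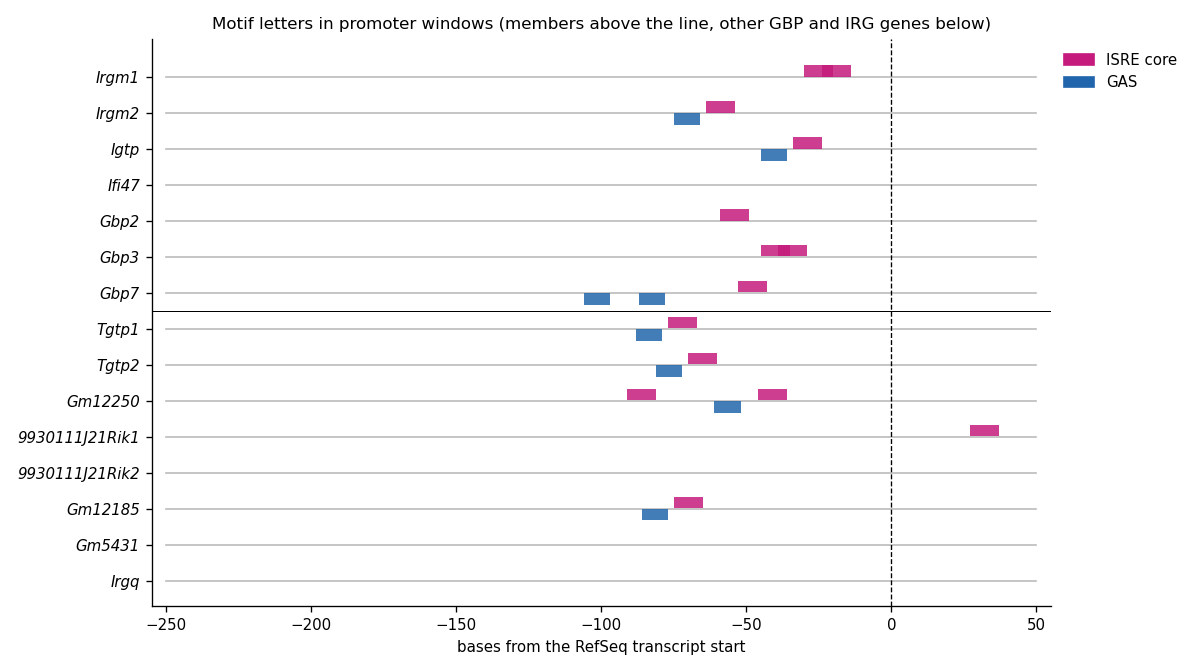
Positions of ISRE core (above each line) and GAS (below each line) letters relative to the RefSeq transcript start, in bases, for 7 members and 8 other GBP and IRG genes. In the members, every match lay within 106 bases upstream of the start, and Ifi47 had none, as was also the case for 9930111J21Rik2, Gm5431 and Irgq.

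Counts on genes summed to between 15806597 and 32453789 per library, so that 3 counts, taken as the floor of detection for counting error alone, corresponded to 0.0924 to 0.19 CPM. Between replicates the chi-square per gene was 10.6 to 67.7, above what sampling alone gives, and each was counted separately. The sort labels were met by defining transcripts, with Xcr1 at 929 to 947 CPM in cDC1, Itgam at 221 to 248 CPM in cDC2 and Siglech at 4328 to 5107 CPM in pDC, each at most 64.9 CPM in the other subsets. Replicate 3 stood apart in every subset. It held the highest sum over 10 genes of the immediate early and heat shock response, at 6178, 6001 and 3988 CPM in cDC1, cDC2 and pDC against 1564 to 3431 CPM in the other libraries. Its sum over 6 NK cell markers was also the highest of each subset, at 159, 160 and 57.5 CPM, against at most 129, 106 and 34.6 CPM in the other libraries of cDC1, cDC2 and pDC. Klrk1 led this sum in every cDC1 and cDC2 library, at 117 to 132 CPM in cDC1 and 65.2 to 81.6 CPM in cDC2. Ncr1, which marks NK cells, was at 2.33, 6.51 and 10.4 CPM in cDC2 replicates 1 to 3 and at most 1.88 CPM elsewhere. The sort had labelled cells for CD49b, an NK cell marker, but how that label was gated is not given in the sources used here. Member counts and some member values are therefore also given with replicate 3 left out of every subset. This is called leaving out the third sort, although the labels give only a replicate number and a date code. The cDC2 marker sum was as high in pDC (1894 to 2054 CPM) as in cDC2 (1833 to 1978 CPM), led in pDC by Cd4 at 1310 to 1450 CPM. Sums over 5 genes each were 2.91 to 18.4 CPM for T cells, 56.4 to 99.6 CPM for B cells, 3.90 to 44.0 CPM for neutrophils and 33.9 to 63.5 CPM for erythroid cells over all libraries. Macrophage and monocyte genes reached 2219 to 3143 CPM in pDC, led by Ly6c2 at 1953 to 2714 CPM, against 159 to 744 CPM in the other subsets. Of the same list, Ccr2 was also highest in pDC (mean 275 CPM). Adgre1, C1qa and Spic were instead highest in cDC2, at means of 344, 42.5 and 14.8 CPM against 14.0, 15.3 and 4.655 CPM in pDC. Endothelial genes reached 712 to 737 CPM in pDC against 104 to 147 CPM. Cdh5, Pecam1 and Kdr were highest in pDC (means of 324, 223 and 175 CPM), whereas Vwf was lowest there (0.941 CPM, 20.5 in cDC1 and 11.5 in cDC2). The part of these other markers in the member results was not tested. In sorted bulk RNA, more cells with a transcript and more transcript per cell cannot be told apart.

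All 10 members differed among the 3 subsets (edgeR quasi-likelihood F test, adjusted p from 3.85e-05 for Gbp7 to 0.0283 for Irgm1), where 56.0% of all genes tested did. The sums over the members of each family are given as a description. Summed over the 5 GBP members, levels were highest in cDC2 (193 to 258 CPM), intermediate in cDC1 (86.9 to 135 CPM) and lowest in pDC (61.5 to 86.1 CPM). The sum over the 5 IRG members was instead highest in pDC (269 to 307 CPM), followed by cDC2 (171 to 262 CPM) and cDC1 (110 to 135 CPM). These sums weigh the abundant members most and leave out the other GBP genes described below. Of those, Gbp4, Gbp6 and Gbp10 were highest in pDC, and Gbp8 was higher in pDC (38.7 CPM) than in cDC1 (10.5 CPM). The order of cDC1 and pDC for GBP is thus that of the 5 members and does not stand for all GBP genes. The sums also leave out the effector IRG genes Gm12250, Tgtp1 and Tgtp2, which were lower in pDC than in cDC2. Neighbouring subsets nearly met in both sums, at 86.9 CPM in the lowest cDC1 library and 86.1 CPM in the highest pDC library for GBP, and at 262 CPM in the highest cDC2 library and 269 CPM in the lowest pDC library for IRG.

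**Figure D2:**
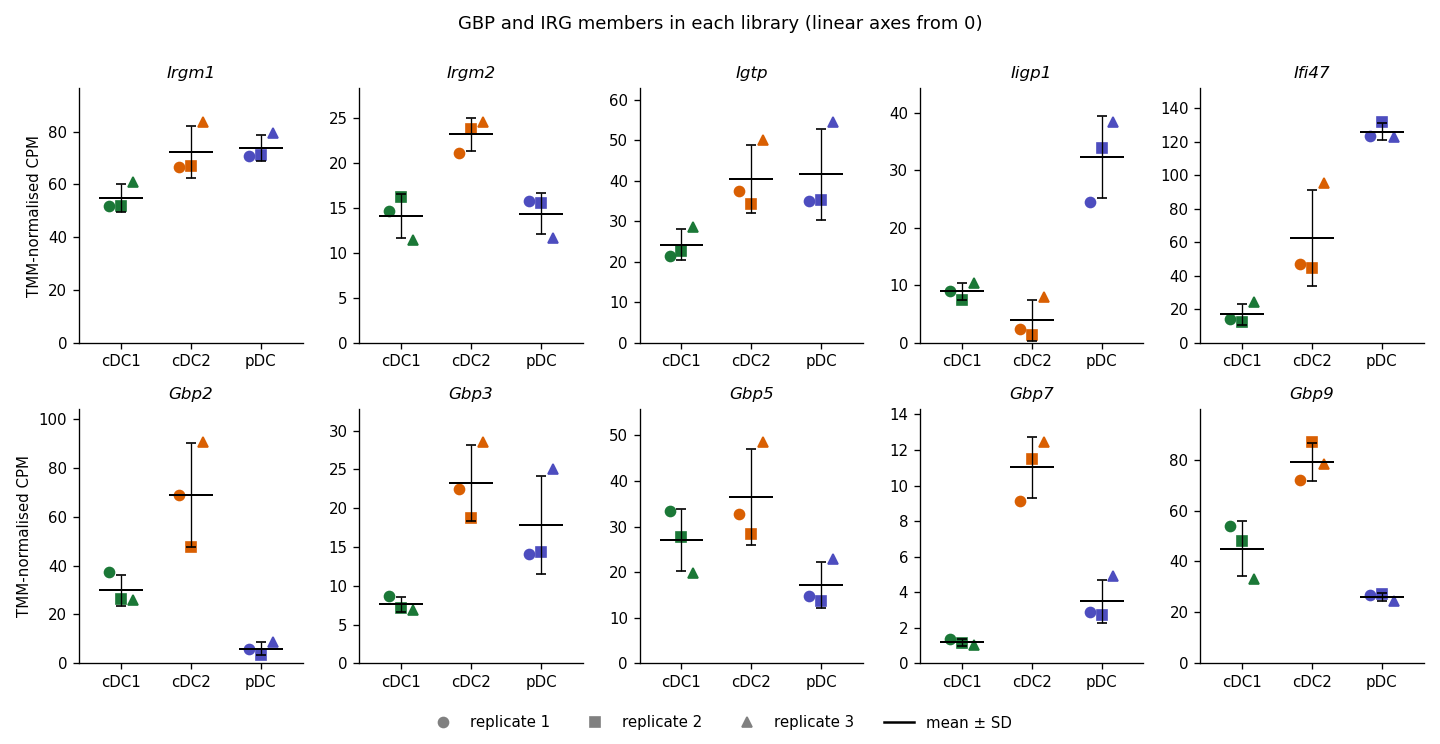
TMM-normalised CPM of the 10 members in each of 9 libraries, with symbols for replicates 1 to 3 and black bars for the mean and SD of each subset on linear axes from 0. Gbp2, Gbp7 and Gbp9 were highest in cDC2, Iigp1 and Ifi47 in pDC, and replicate 3 was the highest cDC2 library for every member but Gbp9.

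The regulatory IRG genes moved over a narrow range. Irgm1, which controls the effector IRG and is also linked to autophagy, was at 51.9, 51.8 and 60.9 CPM in cDC1 replicates 1 to 3, 66.4, 67.0 and 83.8 CPM in cDC2 and 70.7, 71.0 and 79.6 CPM in pDC. The cDC1 libraries lay below all others, and cDC2 and pDC overlapped. Irgm1 was thus higher in pDC than in cDC1 by 0.43 ± 0.13 on the log2 scale (SE, n = 3 per subset, edgeR adjusted p = 0.0192) and higher in cDC2 than in cDC1 by 0.40 ± 0.13 (edgeR adjusted p = 0.0463), while pDC and cDC2 differed by 0.03 ± 0.13 (edgeR adjusted p = 0.884). The cDC2 call for Irgm1 held with the replicate block (adjusted p = 0.00247) and was lost under 12 of 20 alternative settings (adjusted p up to 0.167), among them each library left out in turn apart from cDC1 replicate 3 and pDC replicate 3. The pDC to cDC1 call of Irgm1 was lost without cDC1 replicate 1 or cDC1 replicate 2 (adjusted p of 0.0748 and 0.0693). It held with the replicate block on all libraries (edgeR adjusted p = 0.000795).

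Igtp followed nearly the same course. Its levels were 21.3, 22.8 and 28.6 CPM in cDC1, 37.4, 34.2 and 50.1 CPM in cDC2, and 35.1, 35.2 and 54.7 CPM in pDC, so again only cDC1 was separate. Igtp was higher in pDC than in cDC1 by 0.78 ± 0.22 (edgeR adjusted p = 0.0143) and in cDC2 than in cDC1 by 0.74 ± 0.22 (edgeR adjusted p = 0.0332), and the pDC to cDC2 difference was 0.04 ± 0.22 (edgeR adjusted p = 0.908). The pDC to cDC1 call of Igtp was lost without cDC1 replicate 1 (adjusted p = 0.0584), and its cDC2 to cDC1 call without cDC1 replicate 1, cDC1 replicate 2, cDC2 replicate 1 or cDC2 replicate 3 (adjusted p from 0.0636 to 0.122). Both calls of Igtp held with the replicate block on all libraries (edgeR adjusted p = 0.000171 and 0.000449). Irgm2 took another order, with 14.6, 16.2 and 11.4 CPM in cDC1, 21.1, 23.8 and 24.6 CPM in cDC2 and 15.7, 15.5 and 11.7 CPM in pDC. Here cDC2 lay above every other library. Irgm2 was higher in cDC2 than in cDC1 by 0.71 ± 0.18 (edgeR adjusted p = 0.0165) and lower in pDC than in cDC2, at a log2 change of -0.69 ± 0.18 (edgeR adjusted p = 0.0105), with pDC and cDC1 0.02 ± 0.18 apart (edgeR adjusted p = 0.926). The cDC2 to cDC1 call of Irgm2 was lost without cDC1 replicate 1, cDC1 replicate 3, cDC2 replicate 2 or cDC2 replicate 3 (adjusted p from 0.0533 to 0.0665). It held with the replicate block on all libraries (edgeR adjusted p = 0.0068). Igtp (chr11:58199556-58207591, GRCm38) and Irgm2 (chr11:58199618-58222782) overlap on the plus strand of chromosome 11, and their annotated exons share 162 bases (8.01% of Igtp, 4.39% of Irgm2), so that a small part of their reads cannot be assigned to 1 of them.

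Both effector IRG members were highest in pDC. Ifi47 was at 14.3, 12.3 and 24.0 CPM in cDC1, 47.1, 44.5 and 95.3 CPM in cDC2, and 123, 132 and 123 CPM in pDC, and the 3 subsets did not overlap. It was 7.52-fold higher in pDC than in cDC1 (log2 2.91 ± 0.34, edgeR adjusted p = 6.73e-05), 3.71-fold higher in cDC2 than in cDC1 (1.89 ± 0.33, edgeR adjusted p = 0.00223) and 2.03-fold higher in pDC than in cDC2 (1.02 ± 0.31, edgeR adjusted p = 0.0237). The last call was lost without cDC2 replicate 1, cDC2 replicate 2 or pDC replicate 2 (adjusted p of 0.0893, 0.08 and 0.0547). It held with the replicate block on all libraries (edgeR adjusted p = 0.00157). Without the third sort the pDC to cDC2 difference of Ifi47 was 1.48 ± 0.10 (edgeR adjusted p = 2.58e-05). Ifi47 (chr11:49076587-49096974) shares 111 exon bases with Olfr56 on its strand and 106 with the antisense gene Gm12188.

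Iigp1, which coats parasite vacuoles, was at 8.96, 7.38 and 10.4 CPM in cDC1, at 2.33, 1.37 and 7.97 CPM in cDC2 and at 24.5, 33.9 and 38.5 CPM in pDC. It was the 1 member with its lowest mean in cDC2, although cDC2 replicate 3 reached into the range of cDC1. Levels in pDC exceeded those in cDC1 by 3.63-fold (log2 1.86 ± 0.52, edgeR adjusted p = 0.0134) and those in cDC2 by 8.53-fold (log2 3.09 ± 0.55, edgeR adjusted p = 0.00118). The call against cDC1 was lost without cDC1 replicate 2 (1.74, adjusted p = 0.0502), and the difference from cDC2 was log2 4.11 without cDC2 replicate 3 (edgeR adjusted p = 2.58e-05) and 3.96 without the third sort (edgeR adjusted p = 4.02e-05). The call of Iigp1 against cDC1 held with the replicate block on all libraries (edgeR adjusted p = 0.00255). Between cDC2 and cDC1 the difference was -1.23 ± 0.53 (edgeR adjusted p = 0.129), and with the replicate number as a block it became a fall of Iigp1 in cDC2 (-1.44, edgeR adjusted p = 0.0222). With limma-voom it was -1.74 (adjusted p = 0.0274). Leaving out cDC2 replicate 3 gave -2.28 (edgeR adjusted p = 0.00126) and leaving out the third sort throughout gave -2.17 ± 0.29 (edgeR adjusted p = 0.00146).

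The GBP members were, as a group, lowest in pDC or in cDC1 and had their highest mean in cDC2 in 5 of 5 cases. Gbp2, one of the GBP that carries a lipid anchor (chr3:142620602-142638008), was at 37.4, 26.3 and 26.1 CPM in cDC1, 68.9, 47.6 and 90.5 CPM in cDC2 and only 5.72, 3.50 and 8.77 CPM in pDC. The subsets did not overlap in any pairing. Gbp2 was 11.6-fold lower in pDC than in cDC2 (log2 -3.53 ± 0.35, edgeR adjusted p = 2.73e-05) and 5.02-fold lower than in cDC1 (-2.33 ± 0.34, edgeR adjusted p = 0.000327), and 2.30-fold higher in cDC2 than in cDC1 (log2 1.2 ± 0.32, edgeR adjusted p = 0.021). The cDC2 to cDC1 call of Gbp2 was lost without cDC1 replicate 2, cDC1 replicate 3, cDC2 replicate 1 or cDC2 replicate 3 (adjusted p from 0.0594 to 0.0858). It held with the replicate block on all libraries (edgeR adjusted p = 0.00279).

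Gbp9 (chr5:105077630-105139539, minus strand) had the same order, with 54.0, 47.9 and 33.0 CPM in cDC1, 71.9, 86.8 and 78.2 CPM in cDC2 and 26.7, 27.3 and 24.4 CPM in pDC. Its libraries were tightly grouped in pDC and did not overlap between subsets. Gbp9 was lower in pDC than in cDC2 (log2 -1.60 ± 0.18, edgeR adjusted p = 5.2e-05) and than in cDC1 (-0.79 ± 0.17, edgeR adjusted p = 0.00408), and higher in cDC2 than in cDC1 (0.81 ± 0.17, edgeR adjusted p = 0.00678). The gene listed as Gbp5, a GBP known for its part in inflammasome activation, was at 33.4, 27.7 and 19.9 CPM in cDC1, 32.8, 28.3 and 48.5 CPM in cDC2 and 14.8, 13.7 and 23.0 CPM in pDC. For Gbp5, cDC1 overlapped with both other subsets and pDC lay below cDC2. It was lower in pDC than in cDC2 (-1.09 ± 0.28, edgeR adjusted p = 0.00938), with -0.66 ± 0.28 between pDC and cDC1 (edgeR adjusted p = 0.0751, and -0.72 with an adjusted p = 0.04 when the replicate number was a block) and 0.43 ± 0.27 between cDC2 and cDC1 (edgeR adjusted p = 0.317). The pDC to cDC1 difference of Gbp5 also passed with limma-voom (-0.74, adjusted p = 0.047) and without cDC1 replicate 3 (-0.88, adjusted p = 0.0331), cDC2 replicate 3 (-0.70, adjusted p = 0.0452) or pDC replicate 3 (-0.92, adjusted p = 0.0212). The Ensembl identifier that the table pairs with Gbp5 is named Gbp2b in GENCODE M21, and the table pairs Gbp2b with another identifier that M21 does not hold. Which locus the Gbp5 counts came from was therefore not settled, and its position, length and promoter are not given.

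Gbp3 and Gbp7 were lowest in cDC1 instead. Gbp7 (chr3:142530342-142550149), which lies close to Gbp3 (chr3:142560026-142573209), was at 1.38, 1.17 and 1.02 CPM in cDC1, 9.14, 11.5 and 12.4 CPM in cDC2 and 2.87, 2.74 and 4.89 CPM in pDC. The 3 subsets were separate, and the cDC2 to cDC1 difference was the largest of any member in that comparison, at 9.15-fold (log2 3.19 ± 0.32, edgeR adjusted p = 7.25e-05). Gbp7 in pDC was 2.89-fold above cDC1 (1.53 ± 0.31, edgeR adjusted p = 0.00237) and 3.16-fold below cDC2 (-1.66 ± 0.29, edgeR adjusted p = 0.0011). Gbp3 was at 8.74, 7.17 and 6.91 CPM in cDC1, 22.5, 18.7 and 28.5 CPM in cDC2 and 14.1, 14.3 and 25.1 CPM in pDC. Only cDC1 stood clear for Gbp3, since pDC replicate 3 reached into the cDC2 range. Gbp3 was higher in cDC2 than in cDC1 (1.61 ± 0.26, edgeR adjusted p = 0.00162) and in pDC than in cDC1 (1.22 ± 0.26, edgeR adjusted p = 0.00346), whereas pDC and cDC2 differed by -0.38 ± 0.25 (edgeR adjusted p = 0.253). Without pDC replicate 3, Gbp3 was lower in pDC than in cDC2 (-0.70, adjusted p = 0.0184).

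**Figure D3:**
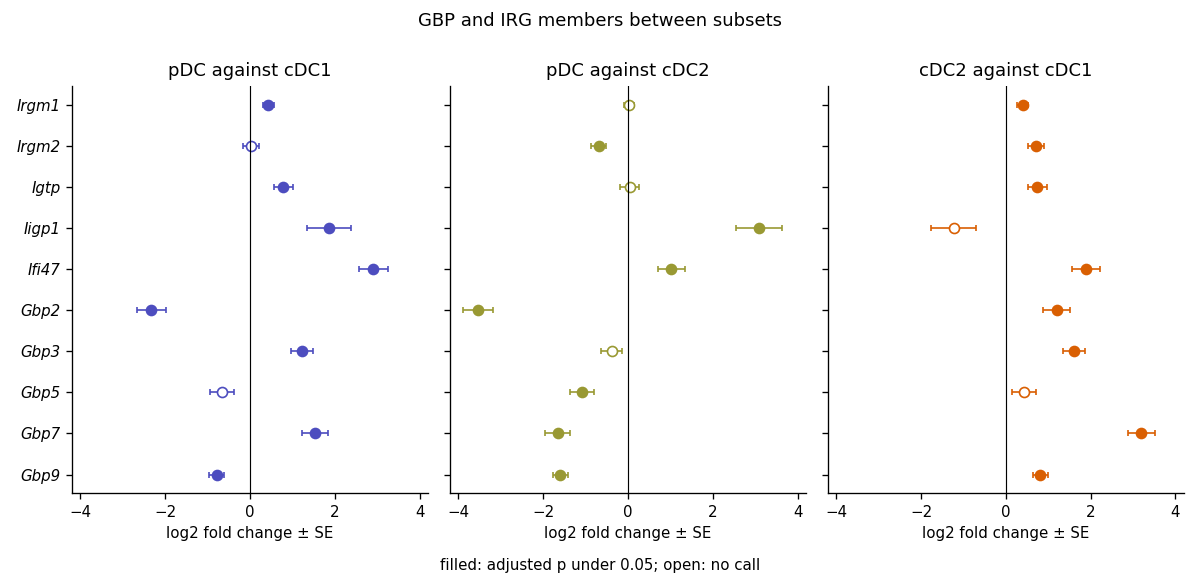
Log2 fold change with its SE for each member between pDC and cDC1, pDC and cDC2, and cDC2 and cDC1, from the fit of all 9 libraries, with filled points for an adjusted p under 0.05 and open points for no call. Between cDC2 and cDC1 all 8 called members lay to the right, and in both comparisons with pDC members lay on either side of 0.

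Counted over the members, cDC2 exceeded cDC1 in 8 of 10 and fell below it in 0, where 12.7% of all genes tested were higher and 11.7% lower (24.4% in either direction). In place of the 0 lower members of the edgeR test, 1 (Iigp1) had an unadjusted p under 0.05. DESeq2 also gave 0, while limma-voom, the replicate block and leaving out the third sort each gave 1 (Iigp1). The median over the members was 0.78 on the log2 scale against 0.03 over all genes tested. Leaving out single libraries took the count of members higher in cDC2 to between 4 and 8, with 5 left without cDC1 replicate 1, 5 without cDC1 replicate 2, 5 without cDC2 replicate 1 and 4 without cDC2 replicate 3. Without the third sort in all subsets the count was again 8, in a fit that called more genes in total between cDC2 and cDC1. Between pDC and cDC1, 6 members were higher in pDC (background 24.3%) and 2 were lower (background 24.4%, or 48.6% in either direction), with a median of 0.61 against 0.02 over all genes. Between pDC and cDC2, 2 members were higher in pDC (background 22.5%) and 5 were lower (background 23.3%, or 45.8% in either direction), with a median of -0.54 against -0.01. The 2 higher members, Iigp1 and Ifi47, are both effector IRG, and 4 of the 5 lower ones are GBP. This split did not extend to the genes outside the members described below. The effector IRG genes Gm12250, Tgtp1 and Tgtp2 were lower in pDC than in cDC2 (log2 -1.08, -4.20 and -1.08, edgeR adjusted p of 0.00224, 0.00022 and 0.0324). Gbp4, Gbp6 and Gbp10 were higher in pDC than in cDC2. These comparisons share libraries and are not independent of each other.

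Levels per length (RPKM) set the members against each other. They used exon lengths of GENCODE M21, which is not known to be the annotation behind the counts, and leave out Gbp5. In pDC, Ifi47 led with 50.96 ± 2.1 RPKM (SD, n = 3), ahead of Igtp at 20.6 ± 5.6, Irgm1 at 12.7 ± 0.87, Iigp1 at 5.55 ± 1.2 and Gbp3 at 5.46 ± 1.9 RPKM, and the last pair did not differ beyond their spread. The cDC2 were led by Gbp2 at 27.4 ± 8.5 and Ifi47 at 25.2 ± 12 RPKM, whose values overlap within their spread, followed by Igtp at 20.1 ± 4.2, Gbp9 at 15.3 ± 1.4 and Irgm1 at 12.5 ± 1.7 RPKM. The cDC1 had Igtp at 11.98 ± 1.9 and Gbp2 at 11.9 ± 2.6 RPKM, then Irgm1 at 9.44 ± 0.91, Gbp9 at 8.69 ± 2.1 and Ifi47 at 6.82 ± 2.5 RPKM, neighbours that are again within their spread. The lowest member per length was Gbp7 in cDC1 at 0.212 ± 0.033 RPKM and in pDC at 0.623 ± 0.21 RPKM, and Iigp1 in cDC2 at 0.667 ± 0.61 RPKM. Reads of 75 bases that could come from more than 1 gene of GENCODE M21 made up 0% of the possible positions of Irgm1 and Iigp1, 0.955% of Gbp2, 2.06% of Gbp3, 2.82% of Ifi47, 3.61% of Gbp9, 4.78% of Irgm2, 7.80% of Igtp and 11.3% of Gbp7. For Gbp7 this includes 637 exon bases (11.35%) shared on its strand with Gm43802, a gene that the deposited counts do not list.

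Across the 9 libraries, the members fell along different courses, given as Pearson r of log2 levels without a test because the points share subsets and sorts. Irgm1 went with Igtp (r = 0.968) and Ifi47 (0.912), Gbp3 with Gbp7 (0.908) and Igtp (0.894), and Gbp2 with Gbp5 (0.914) and Gbp9 (0.905). Iigp1 ran against Gbp9 (-0.908) and Gbp2 (-0.835). Among all other genes tested, those most like the mean of the standardised members over the 9 libraries were Ada (r = 0.969), Gm6189 (0.968), Galnt1 (0.965), Gm15922 (0.964) and Zfp36l2 (0.963). The same measure gave B230118H07Rik (0.990), Panx1 (0.985), Itgb7 (0.983), Prss30 (0.983) and Tmem173 (0.982) for Ifi47, and Tmod3 (0.979), Trmt112-ps2 (0.978), Arsk (0.976), Ulk3 (0.970) and Atp13a3 (0.967) for Igtp.

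The third sort moved the members unevenly. Replicate 3 was the highest library for 9 of 10 members in cDC2 and 7 of 10 in pDC, but for 4 of 10 in cDC1, whereas 40.4%, 40.8% and 44.3% of all genes tested were highest there. The median log2 difference of replicate 3 from the mean of the other two was 0.46 over the members in cDC2, 0.51 in pDC and -0.17 in cDC1. These differences stood beside the higher NK cell and stress gene sums of the same libraries, whose part in them was not tested. Without the third sort, 6 members were higher and 3 lower between pDC and cDC1, 2 higher and 6 lower between pDC and cDC2, and 8 higher and 1 lower between cDC2 and cDC1. More genes in total were also called between cDC2 and cDC1 in that fit. The shares of all genes given for the main test therefore do not apply to these counts. Among the members, the added calls were lower Gbp5 in pDC than in cDC1 (-1.13 ± 0.14, edgeR adjusted p = 0.000421), lower Gbp3 in pDC than in cDC2 (-0.54 ± 0.14, edgeR adjusted p = 0.0162) and the lower Iigp1 of cDC2.

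Further GBP and IRG genes widened the range between subsets. Of 18 listed, 15 were tested: 8 were higher and 3 lower in pDC than in cDC1, 5 higher and 6 lower in pDC than in cDC2, and 5 higher and 1 lower in cDC2 than in cDC1. With the replicate block the last count was 7 higher and 2 lower, and without the third sort 7 higher and 3 lower. In the main test, 48.6%, 45.8% and 24.4% of all genes tested were called in these comparisons, in that order and in either direction. These shares do not apply to the counts with the replicate block or without the third sort. Of the listed GBP genes, Gbp6, Gbp10 and Gbp4 were highest in pDC. Gbp6 stood at 31.8, 31.6 and 42.3 CPM in pDC against 0.401, 0.125 and 0.609 CPM in cDC1 and 0.924, 0.875 and 1.86 CPM in cDC2, a log2 difference of 6.61 ± 0.46 from cDC1 (edgeR adjusted p = 2.16e-06) and 4.89 ± 0.40 from cDC2 (edgeR adjusted p = 6.86e-06). Gbp10 had 97, 63 and 82 counts in pDC and 0 to 4 counts in each of the other libraries. The identifier of Gbp6 is a joined model over the Gbp6 and Gbp10 loci in GENCODE M21, and 99.4% of its 75-base positions occur in another M21 gene. The overlapping M21 genes named Gbp6 and Gbp10 have identifiers that the deposited counts do not list. Counts of Gbp6 and Gbp10 may be split between them, which was not settled. Gbp4 rose from 15.6 to 23.1 CPM in cDC1 through 37.9 to 43.3 CPM in cDC2 to 59.8 to 86.0 CPM in pDC, and passed the test between each pair (edgeR adjusted p of 2.66e-05, 0.00714 and 0.00193).

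Gbp8 was higher in cDC2 (46.4 to 56.3 CPM) and pDC (33.5 to 42.0 CPM) than in cDC1 (8.63 to 13.2 CPM), by 2.29 ± 0.18 and 1.88 ± 0.18 on the log2 scale (edgeR adjusted p = 1.94e-05 and 1.65e-05). Between pDC and cDC2 Gbp8 differed by -0.41 ± 0.17 (edgeR adjusted p = 0.0723), and the replicate block made this a call (adjusted p = 0.0204). The gene listed as Gbp2b ran the other way. It had 79, 87 and 79 counts in cDC1, 20, 12 and 48 in cDC2 and 0 in every pDC library, and its mean of 3.95 CPM in cDC1 was at least 22.5-fold higher than the largest single-library floor in pDC (3 counts, 0.175 CPM). The identifier question raised for Gbp5 applies to Gbp2b too. In cDC2 against cDC1 it gave -1.74 ± 0.73 (edgeR adjusted p = 0.135), or -2.07 as a block fit (adjusted p = 0.0341).

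Among further effector IRG, Gm12250 (Irgb10), which acts on bacteria and chlamydial inclusions, was at 4.48, 4.63 and 4.06 CPM in cDC1, 17.7, 19.6 and 25.7 CPM in cDC2 and 7.62, 10.8 and 11.4 CPM in pDC. The subsets of Gm12250 did not overlap, and each pair passed the test (cDC2 over cDC1 by log2 2.25 ± 0.22, pDC over cDC1 by 1.17 ± 0.22 and pDC minus cDC2 at -1.08 ± 0.21, edgeR adjusted p = 7.29e-05, 0.00156 and 0.00224). Tgtp1 was at 0.412 to 0.847 CPM in pDC, 11.3 to 21.9 CPM in cDC1 and 6.40 to 22.8 CPM in cDC2, while its near-copy Tgtp2 was at 16.3 to 23.0 CPM in pDC, 15.5 to 33.3 CPM in cDC1 and 28.3 to 59.9 CPM in cDC2. With the replicate block Tgtp2 was higher in cDC2 than in cDC1 (0.84, adjusted p = 0.00155), a call absent without it (edgeR adjusted p = 0.124). Of the 75-base positions of Tgtp1, 77.2% occur in another gene (81.4% for Tgtp2), so the split of reads between these copies is uncertain. The copies 9930111J21Rik1 and 9930111J21Rik2, which share 76.0% and 52.3% of positions with other genes, passed no test without the block, and with it 9930111J21Rik1 was higher in cDC2 than in pDC (pDC minus cDC2 -0.57, adjusted p = 0.0444) and than in cDC1 (cDC2 minus cDC1 0.76, adjusted p = 0.0219). Irgq, an IRG-like gene outside the interferon-induced set, was at 27.7 to 29.1 CPM in pDC, 13.7 to 16.2 CPM in cDC1 and 9.38 to 10.4 CPM in cDC2. It passed the test in every pair, and was the 1 gene of this list lower in cDC2 than in cDC1 (-0.59 ± 0.13, edgeR adjusted p = 0.00849). Gbp11 had 0 counts in all libraries, and Gm4841 and F830016B08Rik had too few counts to be tested.

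**Figure D4:**
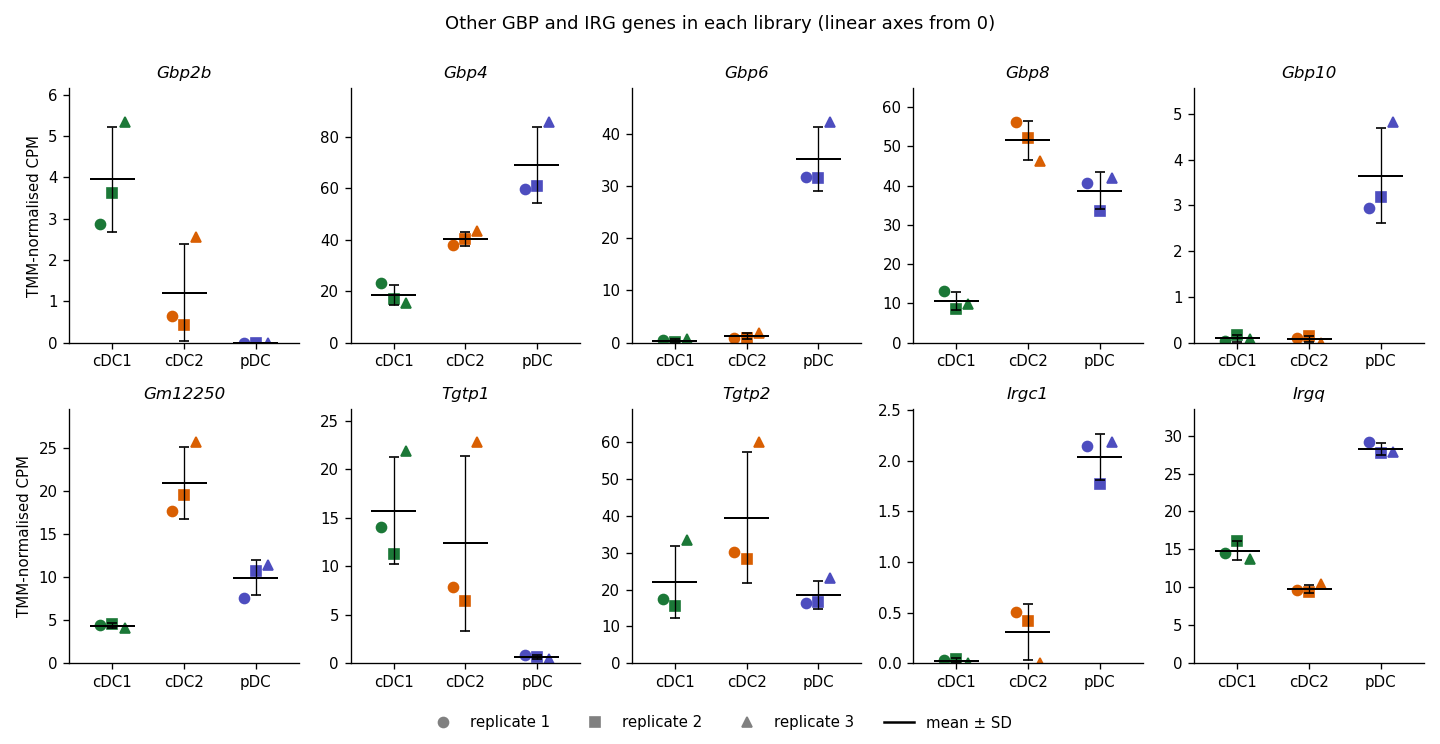
TMM-normalised CPM of 10 further GBP and IRG genes in each of 9 libraries, with symbols for replicates 1 to 3 and black bars for the mean and SD on linear axes from 0. Gbp4, Gbp6, Gbp10, Irgc1 and Irgq were highest in pDC, Gbp8 and Gm12250 in cDC2, and Gbp2b was at 0 counts in the 3 pDC libraries.

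The genes that carry interferon signals to these promoters differed in both directions. Of 21 listed, 20 were tested: 9 were higher and 7 lower in pDC than in cDC1, 7 higher and 6 lower in pDC than in cDC2, and 4 higher and 3 lower in cDC2 than in cDC1. Over all genes tested, 48.6%, 45.8% and 24.4% were called in these comparisons, in that order and in either direction. The receptors for the 2 interferon types were opposed. Ifngr1, the ligand-binding chain of the IFN-γ receptor, had mean levels of 749, 519 and 67.5 CPM in cDC1, cDC2 and pDC, a log2 difference of -3.47 ± 0.13 between pDC and cDC1 (edgeR adjusted p = 6.16e-08) and -2.94 ± 0.13 between pDC and cDC2 (edgeR adjusted p = 1.57e-07). Its partner Ifngr2 was also lower in pDC (55.1 CPM) than in cDC1 (83.9 CPM) and cDC2 (97.1 CPM). The chains of the type I IFN receptor were higher in pDC, with Ifnar1 at 295 CPM against 94.96 in cDC1 and 94.02 in cDC2, and Ifnar2 at 364 CPM against 74.7 and 126 CPM. Jak2, the kinase bound to Ifngr2, was highest in cDC2 (640 CPM, 334 in cDC1 and 218 in pDC) and passed the test in each pair.

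Among the factors, Stat2 rose to 202 CPM in pDC from 70.7 CPM in cDC1 and 105 CPM in cDC2, Irf1 to 239 CPM from 141 and 153 CPM, and Irf7 to 523 CPM from 136 and 128 CPM, each past the threshold against both (edgeR adjusted p of 0.0192 or less). Irf8 was lowest in cDC2 (269 CPM, 2555 in cDC1 and 4241 in pDC). Batf2 was instead lower in pDC (0.0943 CPM, near the floor) than in cDC1 (1.65 CPM, edgeR adjusted p = 0.0028) and cDC2 (0.817 CPM, edgeR adjusted p = 0.0138). Irf2 passed no test. Ciita, an IFN-γ target that drives MHC class II transcription, was at 757, 700 and 162 CPM in cDC1, cDC2 and pDC and lower in pDC than in both. Of the inhibitors, Socs3 was higher in pDC (26.9 CPM) than in cDC1 (4.92 CPM) and cDC2 (8.42 CPM), and Usp18 was lower in cDC1 (34.3 CPM) than in cDC2 (77.5 CPM) and pDC (71.3 CPM). Ptpn2 was instead lower in pDC (37.15 CPM) than in cDC1 (46.7 CPM, edgeR adjusted p = 0.0284) and cDC2 (54.2 CPM, edgeR adjusted p = 0.00217), and Socs1 passed no test. Ifng itself was below the filter. It was at 0.159, 0.525 and 3.14 CPM in cDC2 replicates 1 to 3, highest in the library with the highest Ncr1 level, and at most 0.135 CPM in cDC1 and pDC. The part of NK cell transcripts in the Ifng level was not tested.

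**Figure D5:**
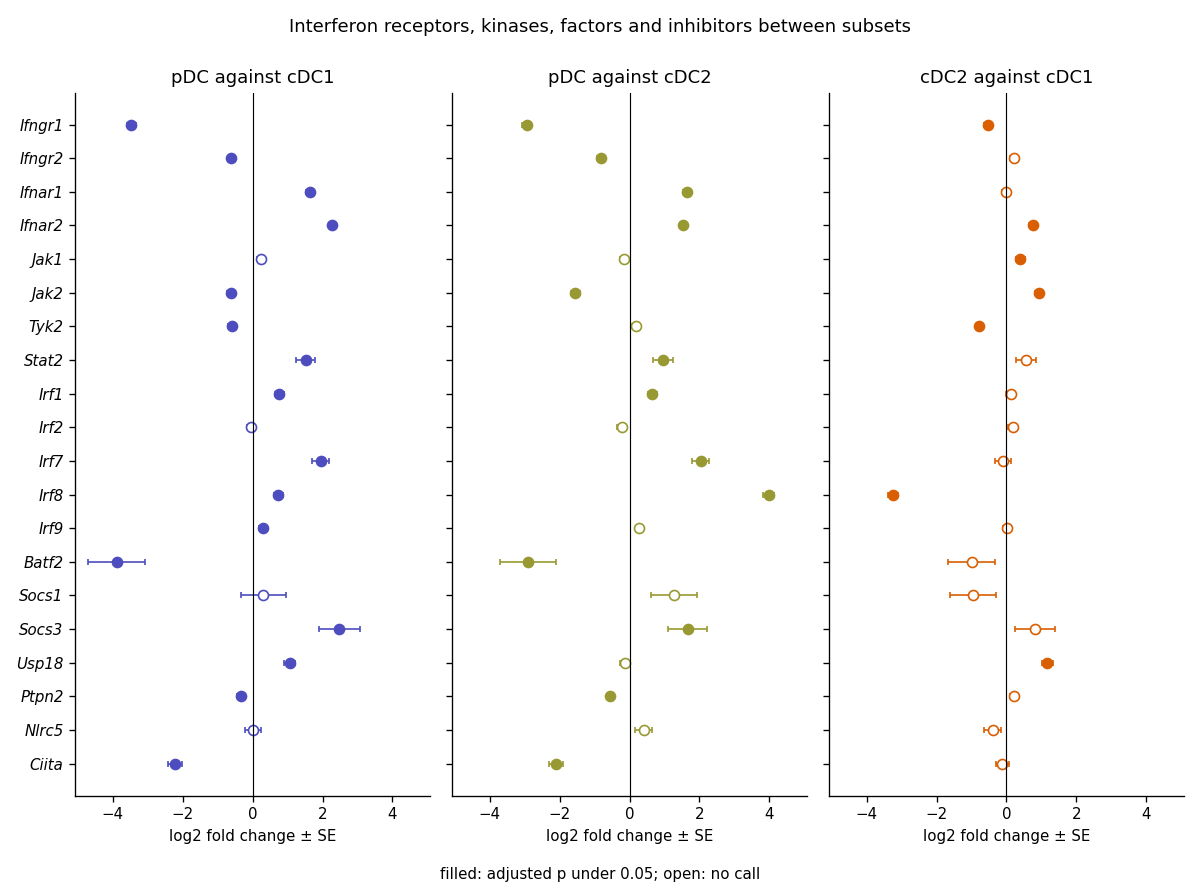
Log2 fold change with its SE for 20 interferon receptors, kinases, factors, inhibitors and target activators in the 3 comparisons, filled for an adjusted p under 0.05. Ifngr1, Ifngr2 and Jak2 lay below 0 and Ifnar1, Ifnar2, Stat2, Irf1 and Irf7 above 0 in both comparisons with pDC.

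Genes whose products work with GBP and IRG proteins were compared in the same way. Of 19 genes of LC3 conjugation, vacuole ubiquitylation and inflammasomes, all tested, 7 were higher and 5 lower in pDC than in cDC1, 5 higher and 4 lower in pDC than in cDC2, and 3 higher and 3 lower in cDC2 than in cDC1. Over all genes tested, 48.6%, 45.8% and 24.4% were called in these comparisons, in that order and in either direction. Between pDC and cDC2 the 9 calls are a share near the 45.8% of all genes, and the lower genes numbered 6 with the replicate block and 7 without the third sort. Casp1, the inflammasome caspase, was highest in cDC2 (90.6 CPM, 30.1 in cDC1 and 43.9 in pDC), as were the sensor Nlrp3 (65.2 CPM, 27.1 and 13.3) and the ubiquitin ligase Rnf213 (279 CPM, 138 and 210). Casp1 and Nlrp3 passed the test in each pair, and Rnf213 in both comparisons with cDC1 (edgeR adjusted p = 0.00245 for cDC2 and 0.0177 for pDC) but not between pDC and cDC2 (edgeR adjusted p = 0.0867), where the replicate block gave 0.0104. The ATG8-family genes Map1lc3a, Map1lc3b and Gabarapl1 were higher in pDC than in both cDC, at 14.3, 179 and 72.6 CPM. Gabarap, of the same family, was instead lower in pDC (342 CPM) than in cDC1 (447 CPM, edgeR adjusted p = 0.0135) and at 337 CPM in cDC2, and Gabarapl2 passed no test (37.0 CPM in pDC, 42.1 in cDC1 and 40.95 in cDC2). Gsdmd, the pore former, was lower in pDC (40.1 CPM) than in cDC1 (67.4 CPM) and cDC2 (73.0 CPM). Pycard, another inflammasome gene of this list, went the other way. It was higher in pDC (105 CPM) than in cDC1 (67.9 CPM, edgeR adjusted p = 0.000777) and cDC2 (74.7 CPM, edgeR adjusted p = 0.00364). Of 5 enzymes that attach and trim the lipid anchors of proteins such as Gbp2, 1 was higher in pDC than in cDC1 (Icmt), 1 higher in pDC than in cDC2 (Fnta) and 1 lower in cDC2 than in cDC1 (Fnta), and with the replicate block the counts were 2 and 3 higher in pDC and 1 higher and 1 lower in cDC2. Without the block, 1 call among 5 enzymes is below the share of all genes called in each comparison. The shares given here are those of the main test and do not cover the counts with the block or without the third sort.

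Antiviral interferon-stimulated genes were set beside the members. Of 18, 9 were higher and 2 lower in pDC than in cDC1, 4 higher and 9 lower in pDC than in cDC2, and 10 higher and 2 lower in cDC2 than in cDC1, with median log2 differences of 0.77, -0.73 and 1.37. With the replicate block 4 were lower in pDC than in cDC1 and 5 lower in cDC2 than in cDC1, and without the third sort 12 were higher and 4 lower in pDC than in cDC1. In the main test, 48.6% of all genes tested were called between pDC and cDC1, 45.8% between pDC and cDC2 and 24.4% between cDC2 and cDC1. The counts with the block or without the third sort come from other fits, to which these shares do not apply. Ifit3 was at 2.45, 55.6 and 5.26 CPM in cDC1, cDC2 and pDC, and Oas1a at 6.98, 78.5 and 13.9 CPM, each in the order of Gbp7. Cxcl9, an IFN-γ-induced chemokine, was highest in cDC1 at 591 CPM, with 54.9 CPM in cDC2 and 5.46 CPM in pDC. None of the 10 members had this order. Outside the members, Gbp2b and Tgtp1 had it on their means, without a main-test call between cDC2 and cDC1 (edgeR adjusted p = 0.135 and 0.66). Mx2, Oasl1, Ifi44 and Bst2 were the 4 antiviral genes higher in pDC than in cDC2. Bst2 was at 85.7, 67.97 and 2324 CPM in cDC1, cDC2 and pDC, and Ifi44 at 8.248, 5.068 and 66.5 CPM, each in the order of Iigp1.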

How the data were processed

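RNA from sorted cDC1, cDC2 and pDC was sequenced as stranded poly(A) libraries. The authors deposited raw read counts per gene for 9 libraries, without normalization. The submitters' processing notes name STAR, SAMtools, MultiQC, featureCounts and mm10. The annotation and the strand setting of the counting are not given in the sources used here, and the statistical method used in Degust is not named. Subsets and replicate numbers were taken from the labels, in which equal numbers share a date code. That is the source of the pairing: deviations from the subset means correlated with a mean r of 0.403 over 9 same-numbered pairs (range 0.266 to 0.543) and -0.179 over 18 others.

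The main test used edgeR 4.0.16 under R 4.3.3: filterByExpr with a minimum count of 10, TMM scaling, 1 quasi-likelihood fit of all 9 libraries by subset (6 residual degrees of freedom), and Benjamini-Hochberg adjustment over 13819 genes, with a threshold of 0.05. The main fit and the fits with libraries left out did not use the pairing, because the study names no block. SE was taken from the log2 fold change and its F statistic. Scripts were tested on simulated data. Alternatives were the replicate block, DESeq2 1.42.0, limma-voom (limma 3.58.1), other scalings and filters, 6-library fits, a log2 fold change of at least 1, and each library left out. Leaving out the third sort was added after the data were seen. Exons and shared positions came from GENCODE M21 (37607 of 39179 identifiers matched) and promoters from RefSeq. Correlations used log2 of CPM plus 1. The members and gene lists were chosen with earlier results of these data known, and the named genes are the members, the listed genes and, for likeness, the 5 genes most correlated with the member mean and with the 2 members highest per length on the mean over all 9 libraries (Ifi47 and Igtp), an order that differs within cDC2. A listed signalling gene is not reported here and was left out of its list.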

Additional observations from a re-analysis of the deposited data

How the results depend on the processing

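Depth limits the lowest members: Gbp7 in cDC1 and Iigp1 in cDC2 rest on about 1 to 2 CPM in some libraries. With the replicate block, limma-voom, or without the third sort, 1 member (Iigp1) was lower in cDC2 than in cDC1 where the reported count is 0. The block added the Gbp5 and Iigp1 calls given above and changed no other member call. With a log2 fold change of at least 1, 4063 genes were called between pDC and cDC1, 3837 between pDC and cDC2 and 1812 between cDC2 and cDC1 (6718, 6328 and 3370 without it), 1 member was lower in pDC than in cDC1, and cDC2 exceeded cDC1 in 4. Without the third sort 5356 genes were called between cDC2 and cDC1. Single libraries left out gave 4 to 8 members higher and 0 to 1 lower in cDC2 than in cDC1, and 1 to 2 higher in pDC than in cDC2, where 1 remained called without cDC2 replicate 1, cDC2 replicate 2 or pDC replicate 2 because Ifi47 lost its call. Where an arm is left with 2 samples the spread is pooled over subsets. The causes of these changes were not tested.

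Differences near 0 changed sign without a call. Irgm2 between pDC and cDC1 was -0.012 with upper quartile scaling, -0.009 without the third sort and -0.14 to 0.15 with single libraries left out. Between pDC and cDC2, Irgm1 ranged from -0.032 to 0.14 and Igtp from -0.20 to 0.21 with single libraries left out, and Igtp was -0.031 without the third sort. Gbp5 between cDC2 and cDC1 was -0.032 without the third sort. Scaling by library size alone moved the median of all genes between cDC2 and cDC1 to 0.14 and the share of calls that were higher from 52.2% to 63.1%, and all member calls were kept.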
